A study of Mus musculus with 2 samples.

Results

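Clustered histone genes are the protein-coding genes that encode the replication-dependent H1, H2A, H2B, H3 and H4 histones, which lie in groups on mouse chromosomes 13, 3 and 11. They were chosen by symbol from the RefSeq annotation of GRCm38.p6, the assembly with the coordinates of mm10. The rule uses no measured value, but the genes were chosen with earlier results of these data known. The choice gave 66 genes of 21887 protein-coding genes, with 54 on chromosome 13, 10 on chromosome 3 and 2 on chromosome 11. By class these were 6 H1, 18 H2A, 18 H2B, 12 H3 and 12 H4 genes. For 63 of the 66 the current symbol matched, and 3 genes, H2bu2 (Hist3h2ba), H2aw (Hist3h2a) and H4bc24 (Hist1h2br), were matched by their older symbols. H4bc24 was counted as an H2B gene, as its older symbol gives.

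Binding was measured by chromatin immunoprecipitation and sequencing (ChIP-seq) with a Myc-Tag antibody in 1 library of a Lck-Dlx5 T-cell lymphoma, and the other library was an Input. In Lck-Dlx5 mice the Lck promoter drives a Myc-tagged Dlx5 homeobox gene in thymocytes, so the antibody recovers the product of the transgene. The lymphoma behind both libraries carried the transgene, and neither library came from tissue without it. The labels give a primary tumor and the strains C57BL/6 for Myc-Tag and C57BL/7 for Input, whereas the methods of the study name 1 tumor-derived cell line and an IgG control. Age and any treatment are not given in the sources used here. With 1 library in each group there is no replicate error, and no p-value was computed.

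Histones of the classes H2A, H2B, H3 and H4 form the core that DNA wraps around, while H1, the linker histone, binds where the DNA enters and leaves that core. The clustered genes are short, lack introns as a rule and are transcribed mainly in S phase, when new DNA is packed. Their mRNAs end in a stem-loop instead of a poly(A) tail. Dlx5 is a homeodomain protein, and proteins of its family bind DNA at the letters TAATT.

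The Myc-Tag library held 3477 called intervals, each with a summit whose height was deposited as a whole number of unstated normalization. Heights ran from 9 to 301 with a median of 16, and the 5th and 95th percentiles were 11 and 29. The Input held 28 intervals. The sequencing depth is unknown, since no read totals were used, and no interval can be put on a height. The labelled cell type could not be checked against markers, because called intervals do not measure expression.

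A gene was counted as having a summit when a Myc-Tag summit lay within 1 kb of either of its ends. Of the 66 clustered histone genes, 50 had a summit (75.8%, 95% Wilson interval 64.2 to 84.5%, taking genes as independent), whereas 10.8% of all coding genes did. Neighbouring histone genes share summits, so the genes are not independent and the interval is too narrow. The 50 genes were reached by 44 intervals, of which 25 lay at 1 clustered histone gene, 15 at 2 and 4 at 3. In the Input, 0 of these 44 intervals were called with the same bounds. Here and below, an interval was taken as called in the Input only when an Input interval had the same start and end. Partial overlap with Input intervals was not checked. By number of summits, 38 genes had 1, 7 had 2 and 5 had 3.

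The histone genes are short, with 60 of the 66 no longer than 1 kb and a median length of 492.5 bp. Short genes in general seldom had a summit in this library. Of the 1577 coding genes up to 1 kb long, 3.17% had one, and of the 1517 that were not clustered histone genes only 4 had one (0.264%). The gene families among these 1517 were not examined, so they may differ from histone genes in more than length. Among non-histone coding genes that lie between the first and the last histone gene of chromosome 13, 0 of 50 had a summit. Of these 50, 36 are Vmn1r genes, which encode vomeronasal receptors of sensory neurons, so the comparison is mostly with 1 receptor family, and the other 14 had none. Hfe, a regulator of iron uptake, is the only such gene that lies inside one of the histone gene stretches themselves, and it had none.

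The counts by class were 5 of 6 H1 genes (83.3%), 12 of 18 H2A genes (66.7%), 12 of 18 H2B genes (66.7%), 11 of 12 H3 genes (91.7%) and 10 of 12 H4 genes (83.3%). With at most 18 genes in a class and 19 of the 44 intervals at genes of more than 1 class, these shares do not rank the classes. By cluster, 41 of 54 genes on chromosome 13, 8 of 10 on chromosome 3 and 1 of 2 on chromosome 11 had a summit. Each of the 3 clusters thus held genes with and genes without a called summit.

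**Figure D1:**
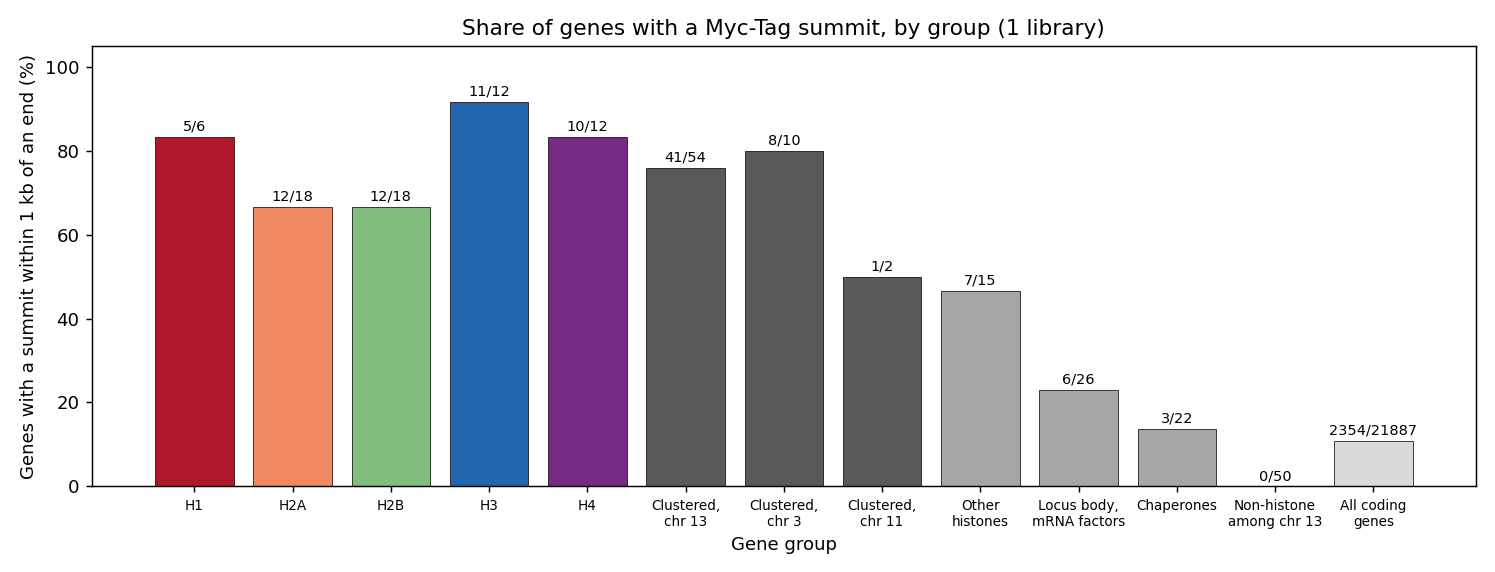
Percent of genes with a Myc-Tag summit within 1 kb of an end (vertical axis, from 0) for each histone class, each cluster and the comparison gene groups, with the number of genes printed above each bar; 1 library, no error bars. The 5 histone classes sit between 66.7% and 91.7%, against 10.8% of all coding genes and 0 of 50 non-histone genes among the chromosome 13 clusters, of which 36 are Vmn1r receptor genes.

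In summit height H1 had the highest median, and the ranges of the other classes overlapped. Each interval was counted once at the histone gene with the nearest end, a choice made after seeing the data. In the planned count, an interval counted in every class with a gene within 1 kb. The planned median heights were 55 for H1, 15 for H2A, 15.5 for H2B, 19 for H3 and 18 for H4. The values that follow are those of the nearest-gene count. The 5 summits nearest an H1 gene had heights of 26, 43, 55, 55 and 73, with a median of 55. The 12 nearest an H2A gene ran from 11 to 19 with a median of 15.5, and the 7 nearest an H2B gene from 10 to 23 with a median of 14. The 10 nearest an H3 gene ran from 12 to 35 with a median of 22.5, and the 10 nearest an H4 gene from 12 to 30 with a median of 18. Counted this way, every H1 summit was taller than every H2A and H2B summit, while the lowest H1 summit lay within the H3 and H4 ranges. In the planned count H2B heights ran from 10 to 43, where 43 is the H1f4 summit shared by H2bc6. The summit of 26 shared by H2bc18 then equalled the lowest H1 summit. Summits at all 44 intervals had a median height of 17, near the library median of 16, with 24 above, 4 at and 16 below it. The 4 tallest of the 44 summits were all at H1 genes.

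H1 intervals, in the same nearest-gene count, were also the widest. Their median width was 1886 bp, against 739 bp for H2A, 646 bp for H2B, 865.5 bp for H3, 1164 bp for H4 and 752 bp for the whole library. The narrowest H1 interval, at 1484 bp, was wider than every other interval at a clustered histone gene except that of H4c14 at 1722 bp. Width and height are 2 readings of the same reads and do not count as separate results.

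**Figure D2:**
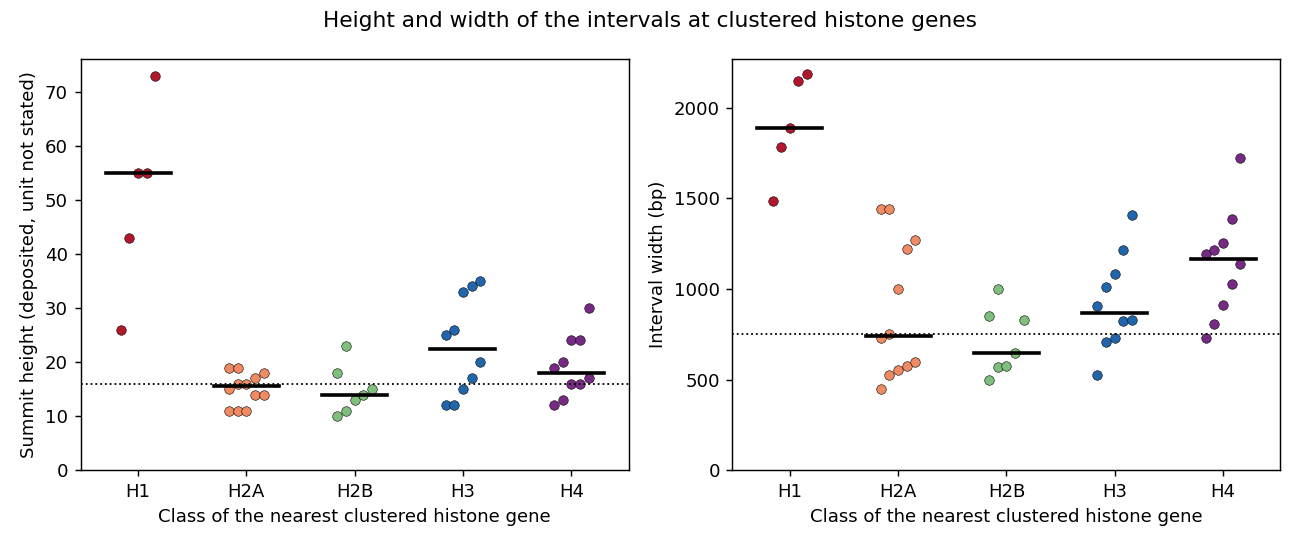
Summit height (left, deposited value of unstated unit) and interval width in bp (right) for the 44 intervals, each a point at the class of its nearest clustered histone gene; thick bars are class medians and dotted lines the library medians of 16 and 752 bp. H1 points lie at 26 to 73 in height, above all H2A and H2B points in this nearest-gene count, which was chosen after seeing the data.

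H1f2 (Hist1h1c), which encodes a linker histone of dividing cells, had the tallest summit of the group at 73. Only 12 of the 3477 summits of the library were taller (0.345%), and 73 was also the tallest summit outside intervals called in the Input, where the next was 66. The interval lay at chr13:23738597-23740745, spanned the whole gene at chr13:23738807-23739531 and had its summit 21 bp beyond the far (3′) end. H1f5 (Hist1h1b, chr13:21779832-21780625) and H1f3 (Hist1h1d, chr13:23555032-23555807) both had summits of 55, exceeded by 0.661% of summits. The H1f5 summit lay 152 bp beyond the far end, and that of H1f3 inside the gene, 127 bp before its far end. H1f4 (Hist1h1e, chr13:23621777-23622558) had a summit of 43, located 161 bp beyond its far end. H1f1 (Hist1h1a, chr13:23763668-23764412) had the lowest H1 summit, 26, inside the gene 332 bp after the start. Among the 10 tallest summits outside Input intervals, which reached down to 53, 3 were at H1 genes.

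The sixth H1 gene, H1f6 (Hist1h1t, chr13:23695811-23696545), encodes the testis linker histone. It had no summit within 1 kb, and the nearest one, of height 13 at H4c3, lay 1450 bp away. The testis genes H2bc1 (Hist1h2ba) and H2ac1 (Hist1h2aa) had none either, with the nearest summit 169725 and 170437 bp away. Summits were therefore found at 0 of 3 testis histone genes, too few genes to set against the other 63.

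The bases before the starts of the H1 genes are shown because this class held the tallest summits and has 1 gene without any. Each line gives 150 bases of the RefSeq promoter table of GRCm38.p6, read 5′ to 3′ on the strand of the gene and ending just before its annotated start. Capitals mark matches on either strand to any of 6 short motifs. These are the CCAAT box (letters CCAAT), the TATA box (letters TATAAA), the H1 box (letters AAACACA), an element of H4 promoters (letters GGTCC), the octamer (letters ATTTGCAT) and the Dlx core (letters TAATT). Matches that overlap or touch run together in 1 stretch of capitals.
H1f2, chr13:23738657-23738806, plus strand: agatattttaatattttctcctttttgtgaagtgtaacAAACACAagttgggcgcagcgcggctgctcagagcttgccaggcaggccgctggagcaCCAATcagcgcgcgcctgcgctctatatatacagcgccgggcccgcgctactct
H1f5, chr13:21780626-21780775, minus strand: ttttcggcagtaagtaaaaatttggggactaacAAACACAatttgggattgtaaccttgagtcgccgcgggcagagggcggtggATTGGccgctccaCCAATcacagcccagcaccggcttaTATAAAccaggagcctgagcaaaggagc
H1f3, chr13:23554882-23555031, plus strand: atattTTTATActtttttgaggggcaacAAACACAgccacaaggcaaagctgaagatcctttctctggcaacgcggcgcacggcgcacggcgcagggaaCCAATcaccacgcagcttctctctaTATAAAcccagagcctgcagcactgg
H1f4, chr13:23622559-23622708, minus strand: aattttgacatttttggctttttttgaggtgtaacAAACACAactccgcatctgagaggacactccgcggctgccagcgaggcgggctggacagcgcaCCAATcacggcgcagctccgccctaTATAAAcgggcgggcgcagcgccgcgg
H1f1, chr13:23763518-23763667, plus strand: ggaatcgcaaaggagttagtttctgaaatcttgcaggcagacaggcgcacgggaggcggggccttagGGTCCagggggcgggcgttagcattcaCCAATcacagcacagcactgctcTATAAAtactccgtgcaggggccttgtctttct
H1f6, chr13:23695661-23695810, plus strand: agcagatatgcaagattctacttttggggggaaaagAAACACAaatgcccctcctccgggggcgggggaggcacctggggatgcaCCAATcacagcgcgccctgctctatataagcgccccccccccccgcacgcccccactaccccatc
All 6 stretches hold the CCAAT box. The H1 box, an element of linker histone promoters, is present in H1f2, H1f5, H1f3, H1f4 and H1f6 and not in H1f1. H1f6, the gene without a summit, thus holds both elements, and H1f1, which has the lowest H1 summit, holds the CCAAT box alone of these.

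Among H2A genes the 3 tallest summits were 23 at H2ac15, 19 at H2ac13 and 18 at H2aw. H2ac15 (chr13:21753377-21753912) and its neighbour H2bc15 (chr13:21754076-21754553) are transcribed away from each other and share 2 intervals, of heights 19 and 23. The summit of 23 was the nearer to H2bc15, 311 bp beyond its far end, and that of 19 lay 81 bp beyond the far end of H2ac15. H2ac13 (chr13:21716412-21716859) and H2bc13 share 3 intervals of heights 18, 17 and 19, of which that of 19 lay 37 bp beyond the far end of H2ac13. H2aw (chr11:58954685-58955192) had its summit of 18 at 56 bp beyond its far end. The other H2A genes with a summit were H2ac22 (16), H2ac21 (16), H2ac20 (16), H2ac8 (15), H2ac12 (15), H2ac10 (14), H2ac11 (14), H2ac7 (11) and H2ac6 (11), where each value is the height of the tallest summit within 1 kb. None of the H2A summits reached 30.

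For H2B the tallest value, 43, belonged to H2bc6 only through the length of its annotation. The H2bc6 gene model (chr13:23583670-23621124) covers 37455 bp and ends beside H1f4, so it shared the H1f4 summit. A separate summit of height 20 at position 23585216 lay 1546 bp from the near end of that model and 754 bp downstream of another annotated H2bc6 start, and did not count under the 1 kb rule. H2bc18 (chr3:96269700-96270192) followed with 26, shared with H3c13, and H2bc15 with 23. The other H2B genes with a summit were H2bc13 (19), H2bc21 (16), H2bc22 (16), H2bc12 (15), H2bc8 (15), H2bc11 (14), H2bc3 (14), H2bc7 (11) and H2bc4 (11), again given as the height of the tallest summit.

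Of the 12 H3 genes 11 had a summit, and their tallest were 35 at H3c1, 34 at H3c11 and 33 at H3c15. The summit of 35 lay between H3c1 (chr13:23761885-23762386), 189 bp from its end, and H4c1 (chr13:23760795-23761249), 447 bp upstream of its start, and counted for both. The H3c11 summit lay 99 bp beyond the far end of the gene at chr13:21782915-21783397, and the H3c15 summit 335 bp beyond that of the gene at chr3:96238479-96239127. The annotation groups H3c1, H3c8, H3c10 and H3c11 as copies that encode H3.1, and the other 8 genes as copies that encode H3.2. The H3.1 genes had tallest summits of 35, 17, 25 and 34. Among the H3.2 genes, H3c15 had 33, H3c13 26, H3c3 20, H3c2 15, H3c6 12, H3c14 12 and H3c4 11, and H3c7 had none. The median over genes was 29.5 for the 4 H3.1 genes and 15 for the 7 H3.2 genes with a summit, and the ranges overlapped.

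Of the H4 genes, which all encode the same protein, H4c1 shared the summit of 35 with H3c1 and had another of 16 of its own. H4c8 (chr13:23531044-23531478) had a summit of 30, at 92 bp after its start. H4c6 (chr13:23551286-23551668) and H4c14 (chr3:96262934-96263317) both had 24. Lower summits were found at H4c9 (20), H4c4 (19), H4c11 (17), H4c12 (16), H4c3 (13) and H4c2 (12). The H4 heights lay within the range of the H3 heights.

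**Figure D3:**
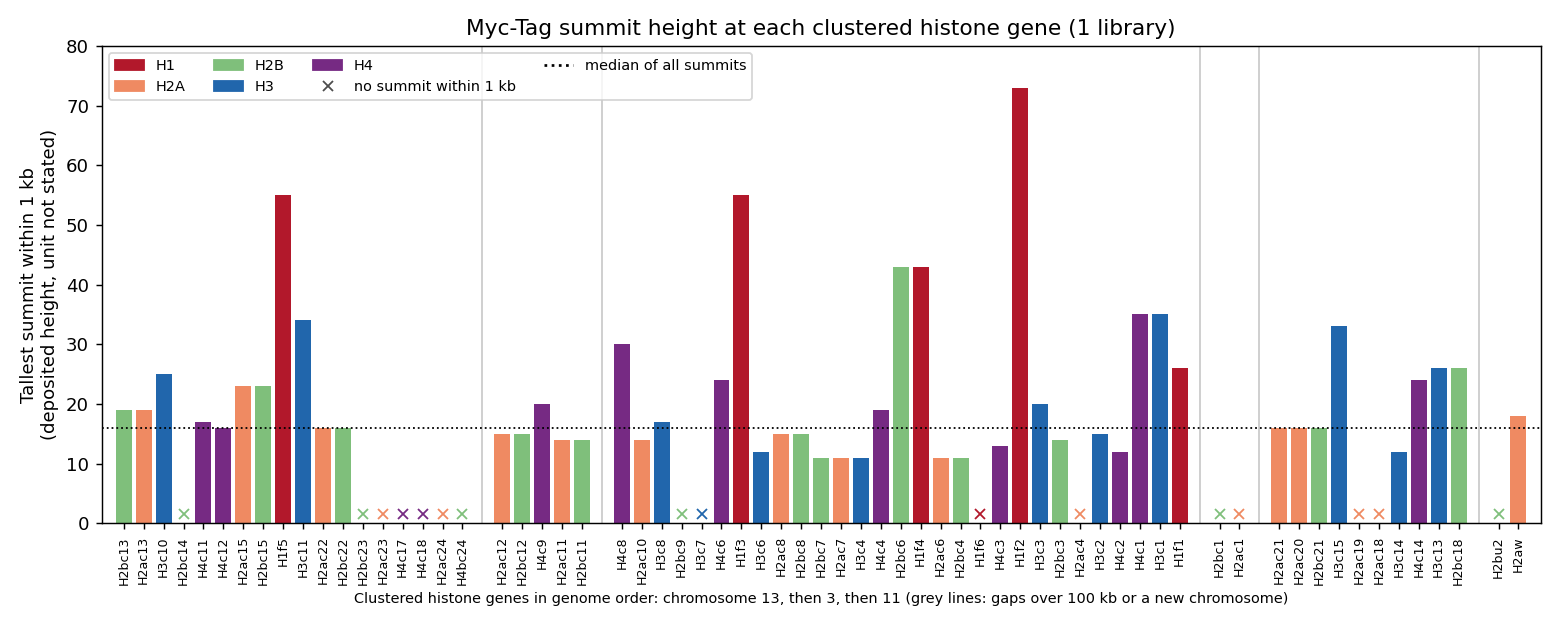
Height of the tallest Myc-Tag summit within 1 kb of an end (vertical axis, deposited value of unstated unit) for each of the 66 genes in genome order, coloured by class; a cross marks a gene without a summit, the dotted line is the library median of 16, and equal neighbouring bars are often 1 shared summit. The bars of H1f2 (73), H1f5 and H1f3 (55 each) and H1f4 (43) rise above the rest, and 6 adjacent genes from H2bc23 to H4bc24 have none.

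On chromosome 13 the histone genes fall into 4 stretches separated by more than 100 kb. In the stretch from 21715711 to 21837530, 11 of 18 genes had a summit. In the stretch from 22035122 to 22043658, 5 of 5 had one, and from 23531044 to 23764412, 25 of 29 had one. The stretch from 23933725 to 23934913, which holds the testis genes H2bc1 and H2ac1, had 0 of 2. Tall and low summits were interspersed: the 5 H1 summits lay in the stretches of 18 and of 29 genes, whereas the tallest in the stretch of 5 genes was 20. The chromosome 3 cluster spans 50.3 kb and had 5 intervals of heights 33, 26, 24, 16 and 12, with a median of 24 against 17 on chromosome 13. Its heights lay within the range of 10 to 73 on chromosome 13.

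On chromosome 3, 1 summit of height 16 at position 96220448 served H2ac21 (chr3:96219885-96220354), H2ac20 (chr3:96220413-96220880) and H2bc21 (chr3:96221072-96223738). H2ac21 and H2ac20 converge, and the summit lay 94 bp beyond the far end of H2ac21 and 35 bp before that of H2ac20. H3c15 and H3c14 (chr3:96246685-96247348) face away from each other around H2ac19 and H2ac18 and differed in height, with 33 and 12. The H4c14 summit was 24, and the 26 of H3c13 (chr3:96268654-96269155) lay 61 bp beyond its far end. On chromosome 11, H2bu2 (chr11:58948911-58949372) had no summit within 1 kb, as the nearest, of height 28, was 4164 bp away.

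The 16 genes without a summit were H2ac19, H2ac18, H2ac4, H2ac23, H2ac24 and H2ac1 of class H2A, H2bu2, H2bc14, H2bc9, H2bc23, H4bc24 and H2bc1 of class H2B, H3c7, H4c17, H4c18 and H1f6. Just outside the limit were H2ac4 at 1272 bp, H1f6 at 1450 bp, H2ac19 at 1635 bp and H2ac18 at 1884 bp. Just inside it were H3c4 at 899 bp, H2bc11 at 894 bp and H2bc22 at 816 bp, and each of these 3 shared the summit of a nearer histone gene. H2bc14 (3292 bp), H3c7 (6406 bp) and H2bc9 (6635 bp) lay farther from any summit.

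The longest run without a summit was 6 adjacent genes on chromosome 13, H2bc23, H2ac23, H4c17, H4c18, H2ac24 and H4bc24, where the nearest summit was 19745 to 47076 bp away. The promoters of 4 of these genes are shown because they are close copies of each other, a property that the choice of genes did not use. Build, table, orientation and capitals are as for the H1 genes.
H2bc23, chr13:21810200-21810349, minus strand: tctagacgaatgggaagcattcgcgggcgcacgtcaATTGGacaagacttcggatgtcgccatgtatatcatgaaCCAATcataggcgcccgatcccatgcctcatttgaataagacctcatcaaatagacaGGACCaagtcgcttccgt
H4bc24, chr13:21833593-21833742, plus strand: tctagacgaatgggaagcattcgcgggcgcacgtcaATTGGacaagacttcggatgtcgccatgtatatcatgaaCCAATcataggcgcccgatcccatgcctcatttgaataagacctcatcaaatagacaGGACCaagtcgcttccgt
H4c17, chr13:21811596-21811745, plus strand: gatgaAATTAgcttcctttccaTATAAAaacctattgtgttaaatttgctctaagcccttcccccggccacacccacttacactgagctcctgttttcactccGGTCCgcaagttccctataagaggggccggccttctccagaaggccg
H4c18, chr13:21832198-21832347, minus strand: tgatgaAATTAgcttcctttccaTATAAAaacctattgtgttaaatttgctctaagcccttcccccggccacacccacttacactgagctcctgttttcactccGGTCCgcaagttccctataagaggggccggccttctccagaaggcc
Over 300 bases of promoter, H2bc23 and H4bc24 were identical (100%, 0 edits), and H4c17 and H4c18 differed by 3 edits (99%). The windows were fixed at the annotated starts, so copies with shifted starts scored lower. By this measure, of 15 genes without a summit that have a promoter entry, 4 had another clustered histone promoter at least 95% identical. These are the 4 shown. The 150 bases before the H2ac23 start recur, shifted, within the 250 bases before the H2ac24 start, so these genes of the run are copies too. H2ac18 and H2ac19 (72.7%) also share shifted sequence. Of 46 genes with a summit, 0 reached 95%, where the closest were H3c14 and H3c15 at 89.7% and H4c11 and H4c12 at 87%. In both of these pairs the bases before the starts are largely the same sequence, shifted. The 0 of 46 therefore does not show that genes with a summit lack close copies. The median identity to the closest other member was 60.7% without and 53.1% with a summit. How reads that match more than 1 place were handled is not given in the sources used here, and the part of sequence identity in the missing calls was not tested.

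Summits at clustered histone genes lay toward the 3′ end. A start was known for the nearest gene at 41 of the 44 intervals. Of these 41 summits, 2 lay upstream of the gene (4.88%), 10 inside it (24.4%) and 29 beyond its far end (70.7%, 95% Wilson interval 55.5 to 82.4%). At other coding genes, counted in the same way, 39 of 1596 summits lay beyond the far end (2.44%), 1012 inside (63.4%) and 545 upstream (34.1%). The median distance from the start was 581 bp downstream for histone genes (quartiles 432 and 756 bp) and 23.5 bp downstream for other genes (quartiles -129.25 and 178 bp). The 300-base promoter window, from 250 bases before to 50 after the start, held 5 of the 41 histone gene summits (12.2%) and 40.1% of those at other genes.

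Gene length enters this comparison directly. The histone genes, with a median length of 492.5 bp, are shorter than the intervals at them, with a median width of 956 bp. The other short genes had only 3 placed summits, of which 0 lay beyond the far end, so no other group of like length was available. Of the 41 intervals, 35 covered the far end of the nearest gene and 16 its start, with 12 covering both. Most summits, 3329 of 3477, lay on a multiple of 16 bp, so a distance such as the 21 bp of H1f2 is close to the step of the data. The median distance of 581 bp from the start is well above that step. Interval ends and summits come from the same calls and are not separate evidence.

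The pattern held in each class in part. Summits beyond the far end were 3 of 5 for H1, 8 of 12 for H2A, 5 of 6 for H2B, 8 of 9 for H3 and 5 of 9 for H4. The median distance from the start was 745 bp for H1, 572 bp for H2A, 623.5 bp for H2B, 753 bp for H3 and 416 bp for H4. Distances beyond the far end reached 637 bp at H3c10, 588 bp at H3c14 and 379 bp at H3c8. Counted by gene with its tallest summit instead, 23 of 46 genes had it beyond the far end, 10 inside and 13 upstream, since a summit that lies beyond the end of one gene is often upstream of the next.

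**Figure D4:**
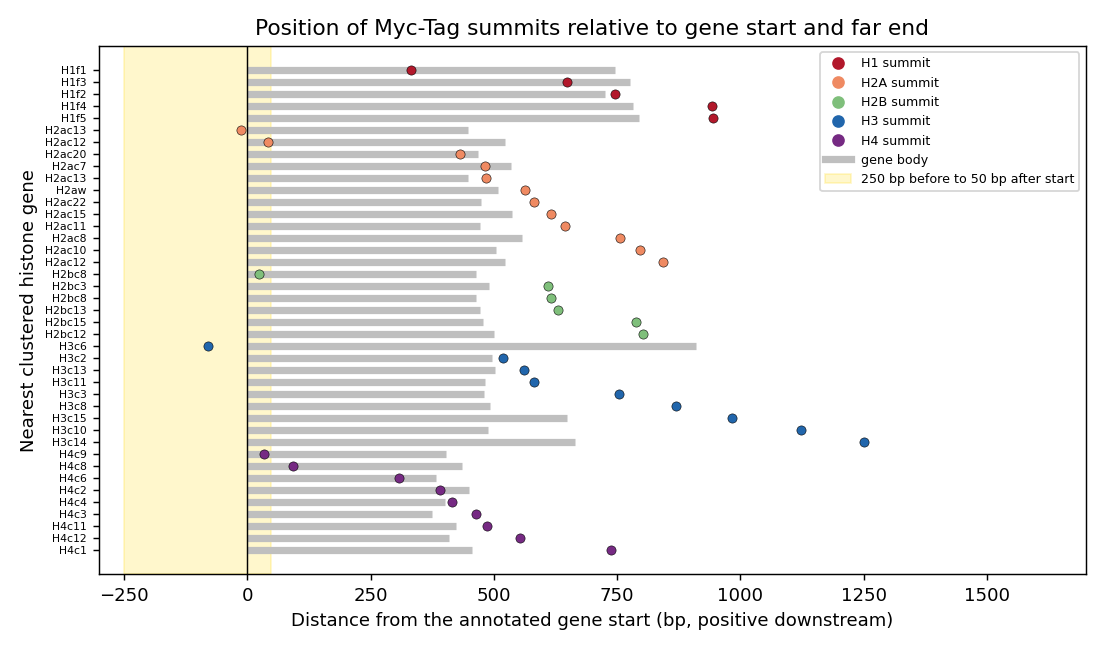
Distance in bp of each of 41 summits from the annotated start of its nearest clustered histone gene (0, positive downstream), coloured by class, with grey bars for the gene bodies and a yellow band for the 300-base promoter window. Of the 41 points, 29 lie to the right of the grey bar and 5 lie in the band.

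H2A and H2B genes often lie head to head with starts close together. Among genes with a known start there were 10 such pairs, with starts 164 to 281 bp apart, and 7 of them had a summit. H2bc21 and H2bc4, which lie next to H2ac20 and H2ac6, have no known start and could not be paired. They had summits of 16 and 11, each shared with that neighbour. Of the 14 summits at these pairs, 1 lay between the starts, in the H2ac13 and H2bc13 pair. At 3 of the pairs, H2ac13 with H2bc13, H2ac12 with H2bc12 and H2ac8 with H2bc8, there were 3 summits each, of which the outer ones lay beyond the 2 far ends and 1 lay at or near the starts. Their heights were 18, 17 and 19 for the first of these pairs, 11, 15 and 13 for the next and 11, 15 and 10 for the last.

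The 5 summits in a promoter window were those nearest H2ac13 (12 bp upstream of the start), H3c6 (79 bp upstream), H2bc8 (24 bp after the start), H4c9 (34 bp after) and H2ac12 (43 bp after). The bases before the starts of all 5 genes are shown because they lie at or next to a summit, with capitals as above.
H2ac13, chr13:21716262-21716411, plus strand: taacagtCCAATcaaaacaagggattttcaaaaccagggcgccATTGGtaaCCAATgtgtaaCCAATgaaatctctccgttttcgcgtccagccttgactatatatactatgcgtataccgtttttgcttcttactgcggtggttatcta
H3c6, chr13:23562386-23562535, minus strand: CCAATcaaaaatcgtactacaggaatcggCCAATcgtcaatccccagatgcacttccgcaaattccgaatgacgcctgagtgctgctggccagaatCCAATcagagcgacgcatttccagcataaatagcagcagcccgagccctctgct
H2bc8, chr13:23571250-23571399, plus strand: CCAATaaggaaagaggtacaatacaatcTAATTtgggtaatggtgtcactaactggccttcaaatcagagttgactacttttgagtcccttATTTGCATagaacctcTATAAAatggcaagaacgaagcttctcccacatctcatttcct
H4c9, chr13:22041363-22041512, minus strand: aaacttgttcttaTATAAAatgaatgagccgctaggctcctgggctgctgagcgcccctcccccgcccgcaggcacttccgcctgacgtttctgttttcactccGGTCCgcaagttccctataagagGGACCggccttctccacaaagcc
H2ac12, chr13:22035644-22035793, minus strand: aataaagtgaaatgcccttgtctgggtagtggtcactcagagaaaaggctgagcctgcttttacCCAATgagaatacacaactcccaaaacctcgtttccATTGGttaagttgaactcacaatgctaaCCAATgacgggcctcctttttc
Of these 5 stretches, that of H2bc8 holds a TAATT match and the other 4 do not. In the full 300-base windows, H3c6 and H2bc8 hold a TAATT match and H2ac13, H2ac12 and H4c9 do not.

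Over the 61 clustered histone genes with a promoter entry, 20 promoters (32.8%) held TAATT or its reverse complement AATTA, against 24% of 17492 coding gene promoters. The share was 32.6% with a summit (15 of 46) and 33.3% without (5 of 15). By class it was 1 of 6 for H1, 6 of 18 for H2A, 5 of 16 for H2B, 6 of 10 for H3 and 2 of 11 for H4. The lowest shares were those of H1, the class with the tallest summits, and H4. Most summits lay outside these windows, and sequence at the 3′ ends was not analysed here. The 5 genes H2bc21, H4c14, H3c7, H2bc4 and H3c1 have no promoter entry.

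Elements known from histone promoters differed in frequency between the classes. The CCAAT box was in 53 of 61 promoters (86.9%, against 39% of all), in 100% of H1, H2A, H2B and H3 promoters and in 3 of 11 of H4 (27.3%). TATAAA was in 57.4%, against 13.3% of all promoters. The octamer ATTTGCAT was in 38.9% of H2A and 37.5% of H2B promoters and in none of the H1, H3 and H4 promoters (0 of 6, 0 of 10 and 0 of 11), against 1.71% of all. GGTCC was in 10 of 11 H4 promoters (90.9%, against 48.9%), and the H1 box in 5 of 6 H1 promoters (83.3%, against 6.13%). Neither the CCAAT box (87% with and 86.7% without a summit) nor TATAAA (60.9% and 46.7%) separated genes with from genes without a summit. The octamer was in 19.6% with and 26.7% without, and GGTCC in 39.1% and 46.7%. The widest gap was that of the H1 box, in 4 of 46 promoters with a summit (8.7%), all of H1 genes, and in 5 of 15 without (33.3%), namely H1f6, H2bc14, H2ac4, H2bc1 and H2ac1. With 15 genes in the smaller group, these shares are a description. The median GC content of the histone promoters was 45.3%, against 56.3% for all coding genes.

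Histone genes outside the clusters were counted in the same way. A list of 28 names, mostly of replication-independent and variant histones but also holding the H4 gene H4f16, gave 15 genes. Of these 15, 7 had a summit (46.7%), against 10.8% of all coding genes. H2ax, the H2A variant phosphorylated at DNA breaks, had 41, H1f0, a linker histone of non-dividing cells, had 34, and H2az1 had 25. H4f16, a lone H4 gene, had 21, H3f3b had 20 and H3f3a 13, which both encode H3.3, and Macroh2a1 had 11. Genes for the other tested variants, among them Cenpa, H2az2 and H1f10, had none.

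Of 26 genes for factors of the histone locus body and of histone mRNA processing, 6 had a summit (23.1%). Zfp473, a zinc finger protein of the U7 particle that processes the stem-loop end, had 32. Hinfp, which binds H4 promoters, and the cap-binding subunit gene Ncbp2 both had 17, Pou2f1, which binds the octamer, had 16, Cpsf2 had 15 and Snrpb 13. Npat and Casp8ap2, which encode core proteins of the body, and Slbp, Lsm10 and Lsm11 had none. Of 22 genes for histone chaperones and depositing factors, 3 had a summit (13.6%), namely Hira (15), Ubn1 (15) and Supt16 (12). These 2 shares were nearer to the 10.8% of all coding genes than that of the clustered genes.

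Other limits were set on the same genes. Within 500 bp of an end, 42 of the 66 genes had a summit, against 9.04% of all coding genes, and within 2 kb 54 did, against 12.3%. Measured from the start alone, 45 of the 61 genes with a known start had one, against 11.4%. An interval overlapped 43 of the 66 genes, against 13.4% of all. With only summits at or above the library median height of 16, 32 genes remained, against 5.68% of all coding genes. H1 kept 5 genes at that height while H2A and H2B went from 12 to 6 genes each.

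Within the chromosome 13 and 11 clusters, 5 further summits lay more than 1 kb from both ends of every clustered histone gene. On chromosome 13 their heights were 10, 19, 15 and 20, the last being that inside the H2bc6 gene model, downstream of its other start. On chromosome 11 the summit of 28 at position 58953536 lay between H2bu2 and H2aw, upstream of the H2aw start at 58954685. It was taller than the 18 at H2aw.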

How the data were processed

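ChIP-seq was performed with a Myc-Tag antibody and an Input on a Lck-Dlx5 lymphoma, 1 library each, and was run and analyzed for the authors by Active Motif, with MACS p-values for peak calling. The authors deposited 5 browser tracks in 1 table, and each summit carries a score, the height of the peak, in whole numbers on a scale that is not given. The submitters' processing notes name BWA and mm9. The coordinates behave as mm10, as 58.4% of summits lay within 1 kb of a GRCm38 coding gene end, and an interval on chromosome Y starts at 90812086.

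Summits were joined to their intervals and to RefSeq genes of GRCm38.p6. Strand and starts came from the RefSeq promoter table, which had entries for 61 of the 66 genes. Members and gene lists were chosen with earlier results of these data known. All members are named, with positions for the H1 genes, the 3 tallest (ties included) of each other class, those on chromosomes 3 and 11 with a summit, and values for those without a summit or near the 1 kb limit. Calls at H2bc23, H4bc24, H4c17 and H4c18, whose promoters are near-identical copies, are uncertain. The same holds for genes whose promoters share shifted sequence, among them H2ac23, H2ac24, H2ac18, H2ac19, H3c14, H3c15, H4c11 and H4c12. Wilson intervals cover counting error only. Depth is unknown, no test was run and nothing was normalized. Alternatives were the distance (500 bp, 2 kb), the start alone, overlap by 1 bp, the height and how shared intervals were counted. Others left out intervals called in the Input or genes matched only by an older symbol. Python 3.11.15, numpy, pandas, scipy, edlib (promoter identity) and matplotlib were used. The search for summits near genes was tested on simulated data of 2000 genes.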

Additional observations from a re-analysis of the deposited data

How the results depend on the processing

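The counts and heights were recomputed 70 times over 17 results, and 56 stayed within 1.5 times a count or at the same median. The 56 include the medians without intervals called in the Input. These could not change, because 0 of the 44 intervals were called there. With only summits at or above the library median height, the genes with a summit fell to 32 and the intervals to 28, with 6 H2A, 6 H2B and 7 H3 genes and 24 genes on chromosome 13, because fewer summits were counted. With the start alone, 5 genes on chromosome 3 had a summit, where H2bc21 and H4c14 have no start in the table and the summit of H3c14 lay 1251 bp from its start. With each gene counted at its tallest summit, the median heights were 15.5 for H2A, 20 for H3 and 19.5 for H4, and 50% of genes had that summit beyond the far end. The planned medians, from which these moved, were 15 for H2A, 15.5 for H2B, 19 for H3 and 18 for H4. With each interval counted at its nearest member, the medians were 15.5 for H2A, 14 for H2B and 22.5 for H3. This count was chosen after seeing the data, and it gave the class heights in the Results. The H1 median was 55 in each. No paired analysis was possible because only 1 library was made per group. The single library, the unknown depth, the unstated scale of the heights and the handling of reads in duplicated sequence limit all values, and a missing call does not show missing binding.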
